A study of Arabidopsis thaliana with 15 samples.

Results

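The genes described here are those whose transcripts stayed level in wild-type Arabidopsis thaliana leaves until 6 h after infection and then rose by 10 h. They were chosen from the deposited log2 values of Col-0, as group means over 3 arrays, by an absolute difference between 6 h and 0 h under 0.5 and a difference between 10 h and 6 h of at least 1.5. On this scale a difference of 1 is a factor of 2. The rule found 82 probe sets for 82 genes among 13513 probe sets paired with a single gene, which is 0.607%. The cap of 200 genes in the rule was not reached. Another 81 probe sets met both bounds, but 74 of them carry no gene name here and 7 are paired with several genes, so they were not counted as members.

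The series holds 15 arrays in 5 groups of 3 biological replicates: rps2 at 10 h and 0 h, and Col-0 at 0, 6 and 10 h. All plants were 4 weeks old, and the bacterium put into their mature leaves was Pseudomonas syringae pv. maculicola with the effector gene AvrRpt2, at an optical density of 0.01 in a 10 mM magnesium sulphate solution. The plants grew in 12 h of light and 12 h of dark. Col-0 is the wild type and rps2 a mutant whose allele is not given in the sources used here. All groups received the bacterium, with no mock infiltration among them, so infection and time of day cannot be told apart in a comparison of times. RPS2 itself has no named probe set in the table and is not analysed here, so the genotype was not checked by its own transcript.

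AvrRpt2 is a protease that bacteria inject into plant cells, where it cleaves the host protein RIN4. RPS2 is an intracellular immune receptor that guards RIN4, and its activation leads to a fast and strong defence response that can end in the death of the infected cells. Plants without RPS2 do not recognise AvrRpt2 in this way, but they still perceive other bacterial molecules and are open to the other effectors of the strain.

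Of the rps2 arrays labelled 10 h, replicate 3 stood apart, and the counts and the leading results below are given with and without it. Over the 82 genes, the SD of the difference between rps2 10 h replicates 1 and 2 was 0.44. The SD of the difference of replicate 3 was 1.56 against replicate 1 and 1.25 against replicate 2, but only 0.17 to 0.19 against the 3 rps2 0 h arrays. In all 82 genes replicate 3 lay within 0.5 of the rps2 0 h mean, from -0.29 to 0.33. The array labelled rps2 10 h replicate 3 thus carried no 10 h change in any of these genes that exceeded 0.33 in size.

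The values are centred, so that each probe set has a median of 0 over the 15 arrays, and they give no absolute level. A value near 0 therefore does not say whether a transcript was present. The tissue label could not be checked by level either. Of 6 mesophyll marker genes, 2 had a probe set paired with that gene alone, and both were lower at later times. LHCB4.2, a chlorophyll-binding protein of photosystem II, differed by -4.11 between 10 h and 6 h in Col-0. RCA, the activase of Rubisco, differed by -1.87. In bulk leaves, fewer cells of a type and less RNA per cell cannot be told apart.

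In Col-0 the 82 genes differed between 6 h and 0 h by -0.41 to 0.47, with a median of 0.14. Between 10 h and 6 h they differed by 1.51 to 5.60, with a median of 1.93, and between 10 h and 0 h by 1.30 to 5.85, with a median of 2.15. These differences chose the genes and are given as a description. In all 82 genes every Col-0 10 h array lay above every Col-0 array of 0 and 6 h, a pattern found in 16.6% of all probe sets. In 68 genes every Col-0 10 h array lay above all 12 other arrays, rps2 included, as in 13.7% of all probe sets. In 53 genes (64.6%) those 12 other arrays spanned less than 1, against 55.9% of all probe sets.

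**Figure D1:**
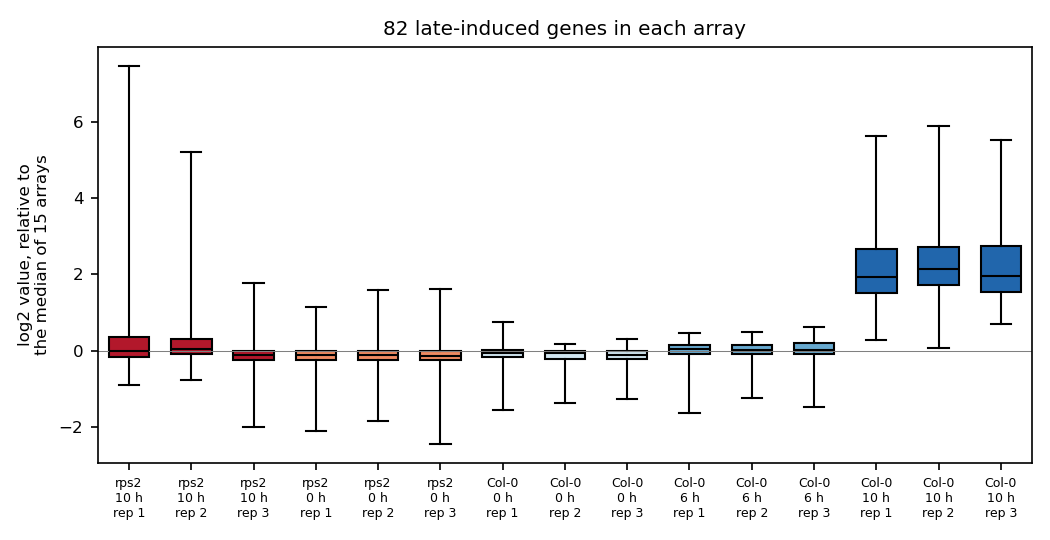
Log2 values of the 82 late-induced genes in each of the 15 arrays, relative to each probe set's median over all arrays. Boxes show the quartiles with the median as a line, and whiskers reach the lowest and highest gene. The median gene lay between 1.92 and 2.15 in the Col-0 10 h arrays and between -0.15 and 0.03 in the other arrays.

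The poly-A spike-ins, bacterial transcripts added to each sample as controls, moved with the Col-0 10 h group. Their 24 probe sets averaged 0.98 ± 0.13 in Col-0 at 10 h, against -0.10 ± 0.08 in Col-0 at 0 h (SD, n = 3 each). With every array set to these spike-ins, the Col-0 difference between 10 h and 6 h is lower by 1.11 in every probe set. On that scale all 82 genes still had a positive difference, from 0.40 to 4.49 with a median of 0.82, and 18 of them reached 1.5. In rps2 without replicate 3, the same scale adds 0.32 to the change between 10 h and 0 h in every probe set. The spike-ins averaged -0.005 in rps2 10 h replicate 1 and -0.49 in replicate 2. The part of the spike-ins in the result was not tested. All other values below are on the deposited scale unless the spike-in scale is named.

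The bounds of the rule cut through a continuous range. Just inside the bound of 1.5 between 10 h and 6 h were AT2G03240 at 1.51 and AT2G27140 at 1.53, and just outside it AT1G52560 at 1.495 and AT5G53990 at 1.4946. Just inside the bound of 0.5 between 6 h and 0 h were AT4G02360 at 0.47 and AT2G23110 at 0.42. Just outside were AT4G15700 at 0.5002 and AT5G16960 at 0.51, although AT5G16960 differed by 3.39 between 10 h and 6 h.

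The highest late rise belonged to BSMT1, the methyltransferase that makes the volatile methyl salicylate from salicylic acid. BSMT1 stood at 6.39, 5.11 and -0.18 in rps2 10 h replicates 1, 2 and 3, against -0.10, -0.20 and -0.18 in the rps2 0 h arrays. In Col-0 it stood at 0.00, -0.27 and -0.22 at 0 h, at 0.08, -0.07 and 0.26 at 6 h, and at 5.65, 5.90 and 5.53 at 10 h. The transcript was thus high in the 3 Col-0 10 h arrays and in rps2 10 h replicates 1 and 2, with overlapping values, and near 0 in the other 10 arrays. The rps2 change was 5.91 ± 0.25 (SE) without replicate 3, with an adjusted p of 3.67e-11 in the limma fit. With all arrays it was 3.93 ± 1.15, with an adjusted p of 0.052.

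The difference between Col-0 10 h and 6 h is called the late rise from here on. There are no rps2 arrays of 6 h, so rps2 changes run from 0 h to 10 h. They do not show whether a rise in rps2 was early or late. In the other 11 of the 12 genes with the highest late rise, the rps2 changes without replicate 3 ran from -0.14 to 1.27, while no Col-0 10 h array of the 12 lay below 2.91. AT5G52390 stood at 0.73, 1.47 and -0.16 in the rps2 10 h arrays and at -0.12, -0.24 and -0.15 in the rps2 0 h arrays, against 4.83, 5.13 and 4.81 in Col-0 at 10 h. Replicates 1 and 2 lay above the rps2 0 h arrays and below the Col-0 10 h arrays, and the rps2 change of 1.27 ± 0.17 passed the test without replicate 3 (limma adjusted p = 1.23e-05). With all arrays it was 0.85 ± 0.29 (adjusted p = 0.058). AT5G54400, a predicted methyltransferase that uses S-adenosylmethionine, rose by only 0.32 ± 0.12 in rps2 (limma adjusted p = 0.036 without replicate 3), against a late rise of 3.98 in Col-0. With all arrays its change was 0.24 ± 0.11 (adjusted p = 0.13), and the call was also lost when any further rps2 array was left out.

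**Figure D2:**
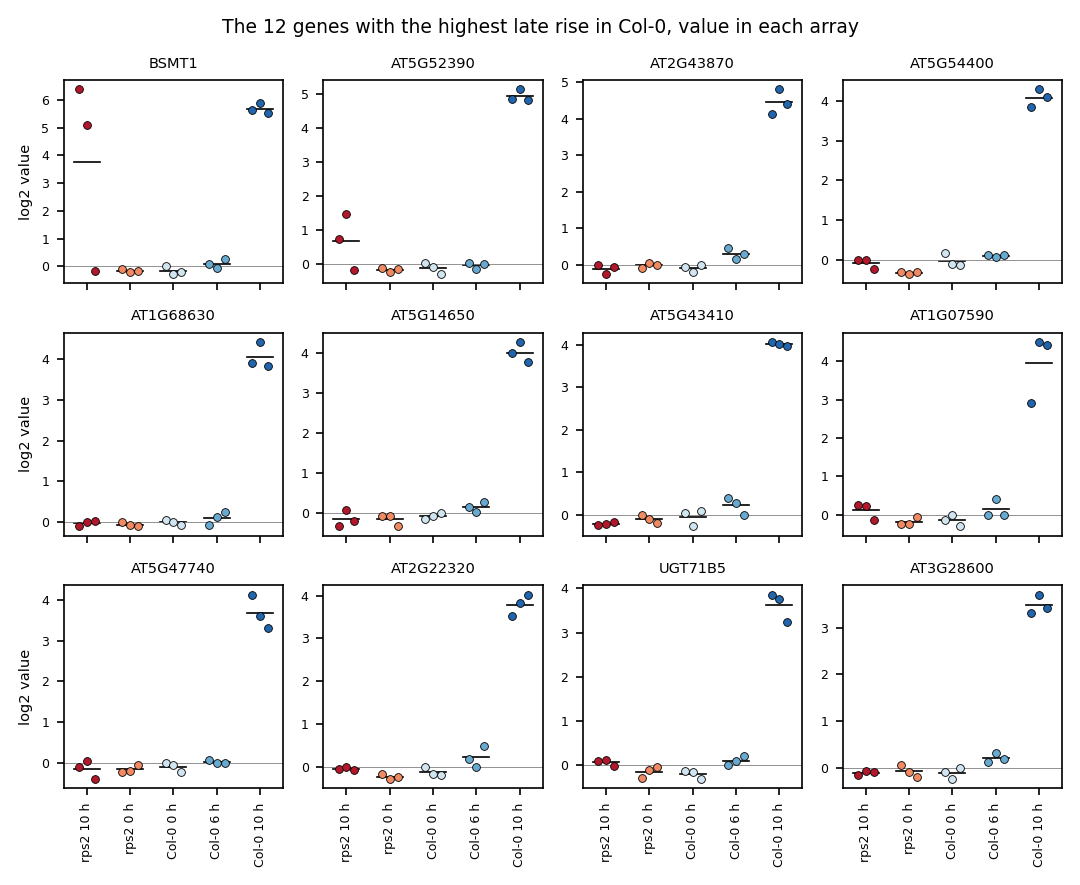
Log2 values in each array of the 12 genes with the highest difference between Col-0 10 h and 6 h, relative to each probe set's median over 15 arrays. Points are replicates 1, 2 and 3 from left to right, and lines are means of 3 arrays. BSMT1 is high in rps2 10 h replicates 1 and 2 and in Col-0 at 10 h, while the other 11 genes have rps2 changes of at most 1.27 without replicate 3.

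On the deposited scale the remaining 9 of these 12 genes did not pass the test in rps2 with or without replicate 3. Among them were AT2G43870 and AT5G14650, predicted polygalacturonases of the family that cuts pectin in cell walls, and AT5G43410, a transcription factor of the AP2/ERF family. AT2G43870 stood at -0.01, -0.24 and -0.06 in the rps2 10 h arrays and at -0.09, 0.05 and 0.00 in the rps2 0 h arrays. In Col-0 it stood at -0.05, -0.19 and -0.01 at 0 h, at 0.46, 0.17 and 0.29 at 6 h, and at 4.14, 4.81 and 4.40 at 10 h. The rps2 arrays of both times overlapped, and the gene was high in the Col-0 10 h arrays alone. AT5G43410 stood at -0.25, -0.21 and -0.17 in the rps2 10 h arrays, against 4.08, 4.03 and 3.98 in the Col-0 10 h arrays. Its rps2 change was -0.14 ± 0.12 without replicate 3 (limma adjusted p = 0.39). UGT71B5, a predicted glycosyltransferase of small molecules, had a late rise of 3.51 in Col-0 and an rps2 change of 0.25 ± 0.14 without replicate 3 (limma adjusted p = 0.17). Calls of these 9 genes depended on the scale. On the spike-in scale the adjusted p followed the size of the change alone. It took no account of the spread of each gene, here and in the spike-in calls below. UGT71B5 passed at 0.57 on the spike-in scale and at 0.55 after a repeated quantile normalisation of the deposited values (adjusted p = 0.014 and 0.0078). Over all probe sets the SD was 0.43 and 0.38 in rps2 10 h replicates 1 and 2, against 0.74 to 1.13 in the other arrays. The quantile normalisation gives every array the same spread, so it widened the values of these 2 arrays. AT1G07590 and AT2G22320 also passed on both of these scales, with changes of 0.73 and 0.52 on the spike-in scale, and AT5G43410 passed after the quantile normalisation alone, at -0.38 (adjusted p = 0.031).

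Since the rule used only Col-0 arrays, the change of the 82 genes in rps2 between 10 h and 0 h could be tested. In the limma fit of all 15 arrays, with Benjamini-Hochberg adjustment over 22746 probe sets and a threshold of 0.05, 0 of the 82 genes rose and 0 fell, and the same was true of all probe sets (0% called in each direction). The smallest adjusted p was 0.052. At an unadjusted p under 0.05 there were 26 of the 82 genes (31.7%), against 38.4% of all probe sets. The median change was 0.07 for the 82 genes and -0.06 for all probe sets.

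Without rps2 10 h replicate 3, 26 of the 82 genes (31.7%) rose in rps2, against 21.2% of all probe sets and 18.9% of those with a single gene. With all arrays these 26 genes had changes of 0.24 to 4.26 and limma adjusted p of 0.052 to 0.22. Of the 82, 5 (6.10%) fell without replicate 3, against 26.9% of all probe sets and 24.9% of those with a single gene. The other 51 genes (62.2%) did not pass the threshold, and their changes ran from -0.40 to 0.48 with a median of 0.04. At a change of at least 1, 17 genes (20.7%) rose, against 8.49% of all probe sets, and 1 fell (1.22%), against 6.75%. The median change of the 82 genes was 0.11, against -0.07 for all probe sets. On the spike-in scale, which adds 0.32 to each change, 36 genes rose and 2 fell, against 26.1% and 9.86% of all probe sets. After the repeated quantile normalisation 37 rose and 13 fell, against 28.4% and 31.5% of all probe sets. That step widened the values of rps2 10 h replicates 1 and 2, as given above. Of the 51 genes that did not pass on the deposited scale, 10 rose on the spike-in scale, and 11 rose and 8 fell after the quantile normalisation.

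By single arrays, rps2 10 h replicates 1 and 2 lay above every rps2 0 h array in 38 of the 82 genes (46.3%), against 26.2% of all probe sets. They lay below every rps2 0 h array in 15 genes (18.3%), against 39.6% of all probe sets, and overlapped them in 29. Set against Col-0 at 10 h, which the rule used, both replicates lay below every Col-0 10 h array in 70 genes (85.4%, against 37.8% of all probe sets), overlapped in 10 and lay above in 2. The mean of rps2 10 h replicates 1 and 2 was lower than that of Col-0 at 10 h by at least 1 in 63 genes, within 1 of it in 17 and higher by at least 1 in 2. As a description, the rps2 change reached or passed the Col-0 change between 10 h and 0 h in 9 genes.

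**Figure D3:**
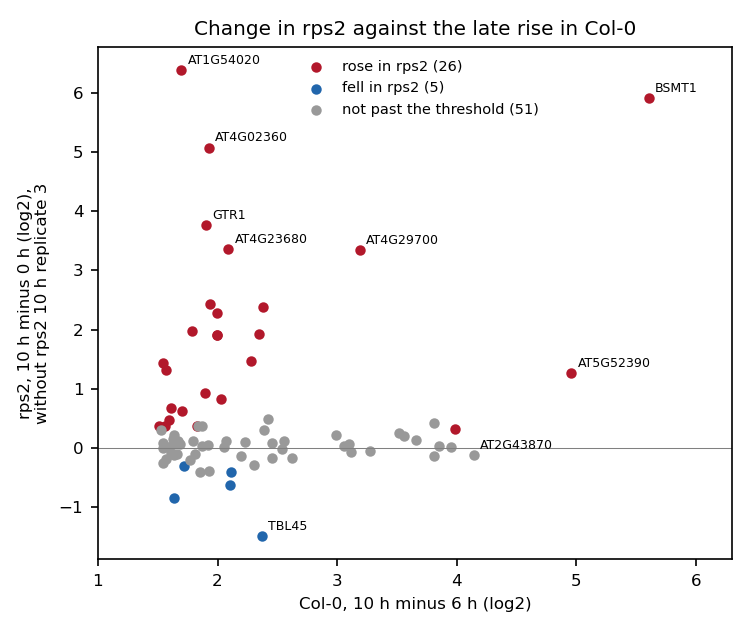
Each point is 1 of the 82 genes, with the Col-0 difference between 10 h and 6 h that chose it on the horizontal axis and the rps2 difference between 10 h and 0 h, without rps2 10 h replicate 3, on the vertical axis (both log2). Red points rose (26), blue points fell (5) and grey points did not pass the limma threshold (51). On the vertical axis 58 of the 82 points (70.7%, against 67.6% of all probe sets) lie within 0.5 of 0. The points of the highest late rises, BSMT1 and AT5G52390, lie at 5.91 and 1.27, and AT1G54020, BSMT1 and AT4G02360 lie above 5.

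The role of 45 of the 82 genes was given in a few words from general knowledge of their families, after the genes and their values were known, so the groups below are a way to order them and no theme is claimed. All counts by role are without replicate 3 and on the deposited scale, and are to be read against the 21.2% of all probe sets that rose and the 26.9% that fell. With all arrays 0 genes of any role passed. The gene table used for symbols holds no descriptions. The other 37 genes were given no role, and of these 7 rose in rps2, 3 fell and 27 did not pass the threshold, without replicate 3.

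Among the genes with no role given, AT4G02360 had the highest change in rps2. It stood at 4.93, 3.57 and -0.90 in the rps2 10 h arrays and at -0.64, -0.85 and -0.97 in the rps2 0 h arrays. In Col-0 it stood at -0.24, -0.64 and -0.36 at 0 h, at 0.11, 0.07 and 0.00 at 6 h, and at 2.11, 1.96 and 1.90 at 10 h. Replicates 1 and 2 of rps2 at 10 h lay above every Col-0 10 h array, and their mean was 2.26 higher. The rps2 change was 5.07 ± 0.26 without replicate 3 and 3.36 ± 1.01 with all arrays (limma adjusted p = 3.45e-10 and 0.052). AT4G23680 stood at 2.46, 3.21 and -0.45 in the rps2 10 h arrays, against 2.73, 1.38 and 2.33 in Col-0 at 10 h, with an overlap in replicate 1. It rose by 3.35 ± 0.28 in rps2 without replicate 3 (limma adjusted p = 8.58e-08) and had a change of 2.26 ± 0.68 with all arrays (adjusted p = 0.052). AT5G24600, near 0 in rps2, stood at -0.15, -0.10 and 0.00 in the rps2 10 h arrays and at -0.09, -0.20 and -0.01 in the rps2 0 h arrays, against 2.68, 2.72 and 2.84 in Col-0 at 10 h.

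The 2 predicted hydrolases not placed in another role group both rose in rps2 without replicate 3, as did 21.2% of all probe sets. Neither passed with all arrays. Other enzymes that act by hydrolysis were grouped as cell wall, protease, specialised metabolism or jasmonate-related. Of those named in the text, BGLU16 and AT5G04250 rose without replicate 3. AT2G43870, AT5G14650, BGLU15, DGL, CP1, AT5G58840 and AT5G19110 did not pass on the deposited scale. AT1G54020, a lipase of the GDSL family, stood at 7.49, 5.23 and -0.02 in the rps2 10 h arrays and at 0.00, 0.02 and -0.09 in the rps2 0 h arrays. In Col-0 its values were -0.05, 0.00 and 0.07 at 0 h, -0.07, -0.17 and -0.24 at 6 h, and 1.52, 1.72 and 1.37 at 10 h. Replicates 1 and 2 of rps2 at 10 h lay far above all Col-0 arrays, and their mean was 4.82 higher than that of Col-0 at 10 h. The rps2 change was 6.38 ± 0.39 without replicate 3 (limma adjusted p = 2.88e-09) and 4.26 ± 1.27 with all arrays (adjusted p = 0.052). AT4G29700, of the nucleotide pyrophosphatase family, stood at 3.44, 2.87 and -0.23 in the rps2 10 h arrays, against 3.49, 2.80 and 2.98 in the Col-0 10 h arrays. Here replicates 1 and 2 overlapped the Col-0 arrays, and the rps2 change was 3.34 ± 0.22 without replicate 3 and 2.21 ± 0.68 with all arrays (limma adjusted p = 7.2e-09 and 0.052).

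Of the 8 predicted transporters, 7 rose in rps2 without replicate 3, where 21.2% of all probe sets rose, and 0 passed with all arrays. The changes without replicate 3 ran from 0.38 to 3.76 with a median of 1.07 over all 8. GTR1, which imports glucosinolates into cells, stood at 1.64, 1.60 and -1.98 in the rps2 10 h arrays and at -2.12, -1.84 and -2.45 in the rps2 0 h arrays. In Col-0 it stood at -0.11, -0.52 and -0.23 at 0 h, at 0.00, 0.14 and 0.23 at 6 h, and at 1.84, 2.35 and 1.89 at 10 h. The 0 h values were lower in rps2, by 1.85 between the means, while replicates 1 and 2 at 10 h lay just below the Col-0 10 h arrays. Its rps2 change was 3.76 ± 0.18 without replicate 3 (limma adjusted p = 1.23e-10) and 2.56 ± 0.70 with all arrays (adjusted p = 0.052). AT1G66760, of the MATE family of efflux carriers, stood at 2.42, 1.52 and -0.61 in the rps2 10 h arrays, against 2.16, 2.33 and 2.24 in Col-0 at 10 h. It rose by 2.39 ± 0.23 in rps2 without replicate 3, and its change with all arrays was 1.53 ± 0.54 (limma adjusted p = 0.064). AT3G53960, of the nitrate and peptide transporter family, rose by 1.91 ± 0.11, AT1G08230, a transporter of the amino acid GABA, by 1.31 ± 0.09, and AT1G26730, a relative of the phosphate exporter PHO1, by 0.82 ± 0.09, all without replicate 3. With all arrays the changes were 1.28 ± 0.37 in AT3G53960, 0.84 ± 0.28 in AT1G08230 and 0.57 ± 0.17 in AT1G26730 (limma adjusted p = 0.052, 0.059 and 0.052). SFP1, a sugar transporter, had a change of 0.48 ± 0.22 that missed the threshold on the deposited scale (limma adjusted p = 0.082). It passed on the spike-in scale, at 0.80, and after the quantile normalisation, at 1.09 (adjusted p = 2.87e-04 and 7.77e-04).

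Of the 5 cell wall genes, 1 rose in rps2 without replicate 3, 1 fell and 3 did not pass the threshold, where 21.2% of all probe sets rose and 26.9% fell. With all arrays 0 of the 5 passed. IRX15-L, needed for xylan in secondary walls, stood at 2.43, 1.92 and -0.53 in the rps2 10 h arrays, against 2.45, 2.05 and 2.06 in Col-0 at 10 h, and overlapped them in replicate 1. It rose by 2.43 ± 0.16 in rps2 without replicate 3 and by 1.52 ± 0.54 in the fit of all arrays (limma adjusted p = 5.39e-09 and 0.063). TBL45 belongs to a family that acetylates wall polysaccharides. It stood at -0.06, 0.00 and 1.78 in the rps2 10 h arrays, and at 1.14, 1.60 and 1.61 in the rps2 0 h arrays. In Col-0 it stood at -1.09, -0.96 and -0.53 at 0 h, at -0.73, -0.86 and -0.90 at 6 h, and at 1.46, 1.69 and 1.48 at 10 h. At 0 h TBL45 was thus 2.31 higher in rps2 than in Col-0, and the rps2 0 h arrays overlapped the Col-0 10 h arrays. In rps2 it fell by 1.48 without replicate 3 (SE 0.16, limma adjusted p = 1.45e-06), against a fall by 0.88 with all arrays (adjusted p = 0.11).

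The other 4 genes that fell in rps2 without replicate 3 did so by less than 1. AT5G62580 stood at -0.90, -0.77 and 0.00 in the rps2 10 h arrays and at 0.09, 0.02 and -0.11 in the rps2 0 h arrays, against 1.34, 1.62 and 1.48 in Col-0 at 10 h. Replicates 1 and 2 lay below all other arrays of this gene, and its change was -0.84 ± 0.11 (limma adjusted p = 1.32e-05). With all arrays it was -0.56 ± 0.19 (adjusted p = 0.058). The changes of CYP71B22, a cytochrome P450, AT4G12840 and AT1G22110 were -0.62 ± 0.18, -0.41 ± 0.13 and -0.31 ± 0.11 without replicate 3, against -0.43 ± 0.20, -0.25 ± 0.15 and -0.18 ± 0.12 with all arrays (limma adjusted p = 0.12, 0.24 and 0.27). On the spike-in scale, which adds 0.32 to each change, none of these 3 passed the test. The changes there were -0.30 for CYP71B22, -0.095 for AT4G12840 and 0.0082 for AT1G22110.

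**Figure D4:**
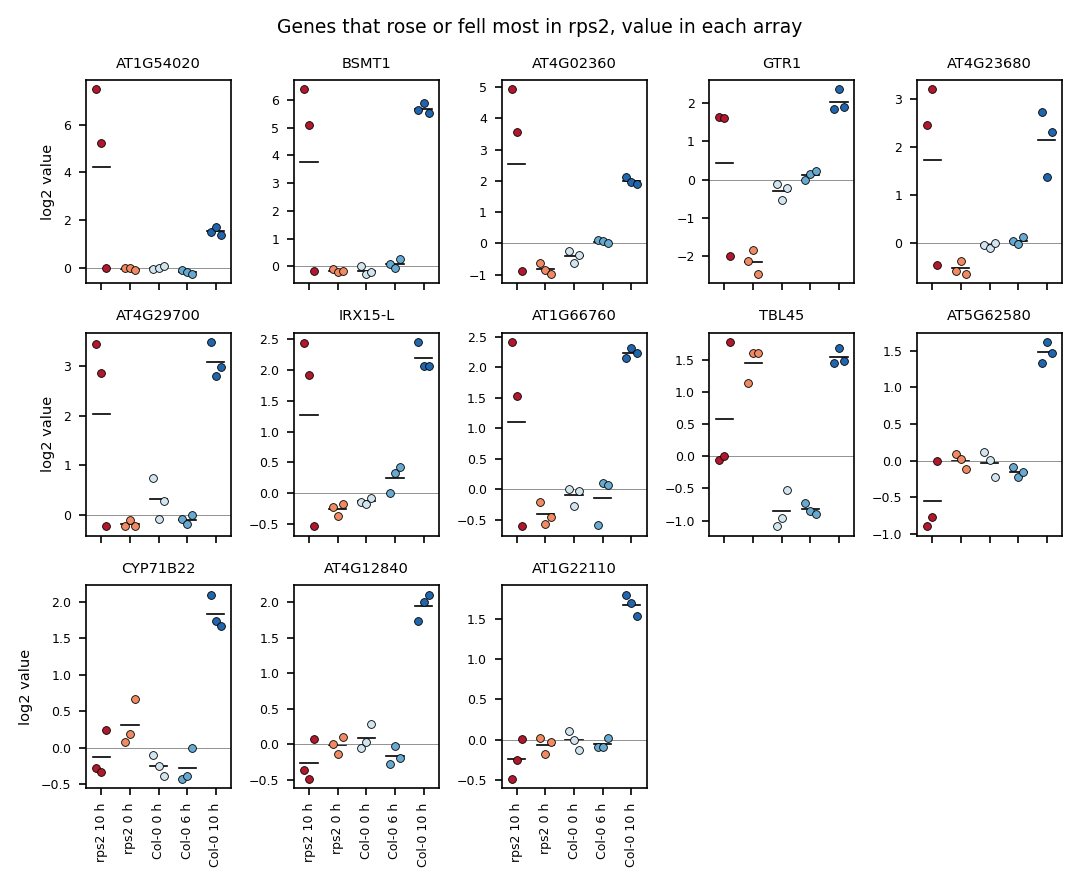
Log2 values in each array of the 8 genes that rose most and the 5 genes that fell in rps2 between 10 h and 0 h without rps2 10 h replicate 3, relative to each probe set's median over 15 arrays. Points are replicates 1, 2 and 3 from left to right, and lines are means of 3 arrays, replicate 3 included. In the 8 genes that rose, rps2 10 h replicates 1 and 2 are high and replicate 3 lies with the rps2 0 h arrays, and TBL45 is higher in rps2 than in Col-0 at 0 h.

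Of 8 enzymes of specialised metabolism, 2 rose in rps2 without replicate 3, 1 fell and 5 did not pass the threshold. BGLU16, a beta-glucosidase, stood at 1.79, 1.68 and 0.10 in the rps2 10 h arrays and at -0.27, -0.22 and -0.09 in the rps2 0 h arrays, against 2.23, 2.52 and 2.12 in Col-0 at 10 h. It rose by 1.93 ± 0.11 in rps2 without replicate 3 and by 1.38 ± 0.33 with all arrays (limma adjusted p = 1.62e-09 and 0.052). Its relative BGLU15 stood at -0.23, -0.24 and 0.00 in the rps2 10 h arrays, against 1.56, 1.86 and 1.44 in Col-0 at 10 h. BGLU15 had an rps2 change of -0.09 ± 0.13 without replicate 3, which passed the test after the quantile normalisation alone, at -0.32 (limma adjusted p = 0.037). Whether the rps2 changes of BGLU16 and BGLU15 differ was not tested.

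Of the 6 predicted transcription factors, 1 rose in rps2 without replicate 3 and 5 did not pass the threshold. NAI1, a bHLH factor needed for the endoplasmic reticulum bodies that store beta-glucosidases, stood at 2.34, 1.37 and -0.23 in the rps2 10 h arrays, against 1.58, 2.31 and 1.11 in Col-0 at 10 h, and these overlapped. It rose by 1.98 ± 0.28 in rps2 without replicate 3 (limma adjusted p = 2.13e-05) and by 1.29 ± 0.48 with all arrays (adjusted p = 0.073). The 3 AP2/ERF factors AT5G43410, AT1G19210 and AT3G16280 had rps2 changes of -0.14, -0.16 and -0.25 without replicate 3, and the zinc finger genes AT2G28710 and AT2G28200 had 0.31 and -0.40. None of these 5 passed the threshold on the deposited scale. After the quantile normalisation 4 of them passed, AT5G43410 at -0.38, AT1G19210 at -0.27, AT3G16280 at -0.45 and AT2G28710 at 0.43 (limma adjusted p = 0.031, 0.023, 0.0039 and 0.017). On the spike-in scale, which adds 0.32 to each change, only AT2G28710 passed, at 0.62. The changes of the 3 AP2/ERF factors were 0.18, 0.16 and 0.068 there.

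Of 5 predicted kinases and immune receptors, 1 rose in rps2 without replicate 3. AT1G67000, a receptor-like kinase, stood at 0.64, 0.63 and -0.25 in the rps2 10 h arrays, against 2.23, 2.20 and 1.51 in Col-0 at 10 h. It rose by 0.92 ± 0.16 in rps2 without replicate 3 (limma adjusted p = 1.85e-04), to values below all Col-0 10 h arrays, and had a change of 0.63 ± 0.23 with all arrays (adjusted p = 0.067). AT5G18350, an immune receptor of the TIR-NBS-LRR class, stood at -0.35, -0.08 and -0.19 in the rps2 10 h arrays and at -0.32, -0.13 and -0.19 in the rps2 0 h arrays, against 1.81, 1.98 and 1.68 in Col-0 at 10 h. The rps2 arrays of both times overlapped, and without replicate 3 its rps2 change of -0.0039 was nearest to 0 of the 82 genes. With all arrays it was 0.0062, and 3 other genes lay nearer to 0.

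Of 4 predicted proteases, 1 rose in rps2 without replicate 3. AT5G04250, of the OTU family that removes ubiquitin, stood at 0.10, 0.00 and -2.02 in the rps2 10 h arrays and at -2.01, -1.83 and -1.74 in the rps2 0 h arrays. In Col-0 it stood at -0.16, -0.23 and 0.06 at 0 h, at 0.14, 0.04 and -0.09 at 6 h, and at 1.73, 2.21 and 2.12 at 10 h. The rps2 change was 1.91 ± 0.14 without replicate 3 and 1.22 ± 0.41 with all arrays (limma adjusted p = 1.29e-08 and 0.059), against a late rise of 1.99 in Col-0. The rps2 mean at 0 h was 1.75 lower than that of Col-0, and replicates 1 and 2 of rps2 at 10 h lay close to the Col-0 arrays of 0 and 6 h. CP1, a papain-like cysteine protease, the subtilase AT5G58840 and the aspartyl protease AT5G19110 had rps2 changes of 0.05, 0.12 and 0.07 without replicate 3. With all arrays the changes were -0.06, 0.06 and 0.006, and none of these genes passed the threshold in either fit.

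Besides TBL45, GTR1 and AT5G04250, 3 more of the 82 genes differed by at least 1 between rps2 and Col-0 at 0 h. MGL, the methionine gamma-lyase that breaks down methionine, was 1.28 higher in rps2 at 0 h. MGL stood at 2.20, 0.99 and 0.00 in the rps2 10 h arrays and at -0.24, 0.23 and 0.38 in the rps2 0 h arrays, against 0.85, 0.47 and 1.13 in Col-0 at 10 h, and it rose by 1.47 ± 0.28 in rps2 without replicate 3 (limma adjusted p = 3.82e-04). With all arrays the MGL change was 0.94 ± 0.40 (adjusted p = 0.11). AT4G16000 was 1.43 and AT2G28200 1.25 higher in rps2 at 0 h, and neither passed the test in rps2. In all 6 of the 82 genes had such a difference at 0 h, against 5.43% of all probe sets. The rule used the Col-0 0 h arrays, so this is a description.

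The late-induced genes included 3 that are encoded in the mitochondrial genome, nad6, nad4L and nad9, all subunits of complex I of the respiratory chain. In Col-0 their late rises were 2.56, 1.70 and 1.61. In rps2 without replicate 3, nad9 rose by 0.68 ± 0.11 and nad4L by 0.63 ± 0.15 (limma adjusted p = 1.3e-04 and 0.0022), and nad6 had a change of 0.11 ± 0.14. With all arrays the changes were 0.42 ± 0.18 in nad9, 0.37 ± 0.20 in nad4L and 0.06 ± 0.14 in nad6 (limma adjusted p = 0.11, 0.19 and 0.76). Over all 23 single-gene probe sets of mitochondrial genes, which cover 16 genes, 22 had a positive difference between Col-0 10 h and 6 h, with a median of 0.92, and 4 reached 1.5. The fourth, cox2, was no member because its Col-0 means differed by 1.46 between 6 h and 0 h. The shares and the median over all probe sets are not given here for these differences. Of 69 probe sets of plastid genes none was a member, and their median difference was -0.10. On the spike-in scale the mitochondrial median would be lower by 1.11, as for every probe set. In rps2 without replicate 3, 6 of the 23 mitochondrial probe sets rose and 1 fell, where 21.2% of all probe sets rose and 26.9% fell.

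Of the 269 loci in 12 lists of genes of known pathways, 41 had a probe set paired with that gene alone. Such genes are called measured here and below. Among them BSMT1 was the one member, in the jasmonate list and in the list of salicylic and pipecolic acid. Loci on the 9233 probe sets without a single gene were not matched, so the lists say nothing about those. In rps2 without replicate 3, 7 of 10 measured jasmonate genes rose and 0 fell, out of 55 loci on that list. All 5 measured genes of the salicylic and pipecolic acid list rose, out of 21 loci. BSMT1 is counted in both, and 21.2% of all probe sets rose. With all arrays 0 of these genes passed. JMT, which makes methyl jasmonate, had differences of 0.71 between 6 h and 0 h and 3.19 between 10 h and 6 h in Col-0, and it rose by 3.14 ± 0.29 in rps2 without replicate 3, against 2.03 ± 0.69 with all arrays (limma adjusted p = 0.060). UGT76B1, which attaches glucose to salicylic acid, was high by 6 h in Col-0, with differences of 8.54 between 6 h and 0 h and -0.24 between 10 h and 6 h, and rose by 7.68 ± 0.21 in rps2 without replicate 3, against 5.16 ± 1.45 with all arrays (limma adjusted p = 0.052). DGL, a chloroplast lipase related to the lipase DAD1 of jasmonate synthesis, is one of the 82 genes. It stood at -0.21, -0.07 and -0.08 in the rps2 10 h arrays, against 2.07, 2.63 and 1.81 in Col-0 at 10 h, and did not pass the test in rps2.

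Neighbours on the chromosome were compared for the 61 late-induced genes that have a measured gene next to them among the protein-coding genes. In 5 of them (8.20%) a neighbour also had a Col-0 difference of at least 1.5 between 10 h and 6 h, against 3.12% of all single-gene probe sets with a measured neighbour. No measured neighbour was itself one of the 82 genes. AT1G68630, with a late rise of 3.95, lies next to AT1G68620, which differed by 5.61 between 6 h and 0 h in Col-0 and by a further 2.70 between 10 h and 6 h. In rps2 without replicate 3 the change was 0.01 ± 0.14 in AT1G68630 and 4.59 ± 0.11 in its neighbour, and with all arrays 0.04 ± 0.13 and 3.07 ± 0.88. NAI1 lies next to AT2G22760, which had a late rise of 5.65 in Col-0 and an rps2 change of 0.60 ± 0.17 without replicate 3 and 0.43 ± 0.19 with all arrays, against 1.98 and 1.29 in NAI1. BGLU16 lies next to BGLU27, with a late rise of 5.11 and an rps2 change of 0.74 ± 0.24 without replicate 3 and 0.47 ± 0.28 with all arrays, against 1.93 and 1.38 in BGLU16. With all arrays none of these 3 neighbours passed the test (limma adjusted p from 0.052 to 0.23). The other 2 pairs were AT2G31940 with AT2G31945 and AT4G27654 with AT4G27657 and AT4G27652. Like AT1G68620, these neighbours had already changed by 6 h in Col-0. The differences between 6 h and 0 h were 0.81 in AT2G22760, 1.97 in BGLU27, 2.58 in AT2G31945, 0.71 in AT4G27657 and 1.57 in AT4G27652.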

How the data were processed

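The deposited log2 values come, per the submitters' processing notes, from RMA, which corrects background, quantile-normalises arrays and combines the probes of a probe set. In the deposited table every probe set has a median of 0 over the 15 arrays, so the values carry no level or detection limit; the step that centred them is not given in the sources used here. Genes came from the platform's annotation: 64 control probe sets were set aside, 22746 of 22810 were tested, and 13513 had a single gene. Of the 82 genes, 79 were found in the gene table, which gave symbols and chromosomal neighbours (assembly TAIR10.1); the 3 mitochondrial genes keep the annotation's names.

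A mean for each of 5 groups was fitted with limma 3.58.1 in R 4.3.3, and rps2 at 10 h was set against 0 h with limma's moderated two-sided test, Benjamini-Hochberg adjusted over the tested probe sets at 0.05. Residual degrees of freedom were 10 with all arrays and 9 without rps2 10 h replicate 3. Errors after ± are standard errors unless SD is written. Contrasts that use Col-0 arrays were not tested, since the rule used those arrays. The genes named were the 12 with the highest late rise, the 8 with the largest rise and up to 8 with the largest fall in rps2, the 4 nearest 0 there, those beside the bounds and members of the pathway lists; others named by role were chosen after their values were seen. The 82 genes, the lists and the tests were chosen with earlier results of these data known. No gene family of the keyword lists reached 3 members, but the keywords were matched to a gene table without descriptions. They found 0 AP2/ERF genes among all single-gene probe sets, although 3 are named above. The keyword search therefore says nothing about the families of the 82 genes. Promoter sequences were not used here. Precision is limited by how many arrays there are: the median standard error of the rps2 change was 0.16 over the 82 genes with all arrays and 0.15 without replicate 3. Same-numbered arrays of different groups did not deviate together (correlations from -0.29 to 0.26 over 30 pairs, 2 of them over 0.1), so the numbers were not taken as pairs. The limma fit was tested on simulated data in which every array followed its group. No simulated array was like rps2 10 h replicate 3, so the test does not cover that feature of the fit of all arrays.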

Additional observations from a re-analysis of the deposited data

Results flagged for a closer look

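In 4 of the late-induced genes, every rps2 10 h array lay below every rps2 0 h array while every Col-0 10 h array lay above every Col-0 0 h array. The Col-0 part holds in all 82 genes, and the share of all probe sets with the whole pattern is not given here. Replicates 1 and 2 alone lay below every rps2 0 h array in 39.6% of all probe sets. In DGL the nearest arrays stood at -0.0703 and -0.0664. In AT1G19025 they stood at -0.0014 in rps2 10 h replicate 3 and at 0.00 in an rps2 0 h array. Replicate 3, which the pattern counts, lay with the rps2 0 h arrays, as given above. The rps2 difference between 10 h and 0 h over all arrays was -0.16 in AT1G19210, an AP2/ERF transcription factor, -0.21 in AT4G28940, -0.11 in DGL and -0.15 in AT1G19025. None of these rps2 differences passed the test, and the difference between the genotypes was not tested, since the rule used the Col-0 arrays. Without replicate 3, in the same order, the changes on the spike-in scale were 0.16, 0.030, 0.19 and 0.12. After the quantile normalisation they were -0.27, -0.65, -0.20 and -0.24, and AT1G19210 and AT4G28940 passed there (limma adjusted p = 0.023 and 0.0055). The direction in rps2 thus depended on the scale. The poly-A spike-ins, which are no plant transcripts, averaged 1.08 higher in Col-0 at 10 h than in Col-0 at 0 h.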

How the results depend on the processing

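With all arrays, where 0 genes rose and 0 fell, the counts were 10 up with trended and robust variance, 26 up and 6 down with array weights, 24 up and 4 down after a repeated quantile normalisation, and 24 up on the spike-in scale. Over all 22746 probe sets these settings gave, in the same order, 2221 up and 1700 down, 5022 and 6610, 3699 and 3027, and 4127 and 221. Leaving out 1 rps2 array at a time gave 0 to 26 up and 0 to 5 down, with the highest counts without rps2 10 h replicate 3. The median change of 0.07 became 0.19 after the quantile normalisation and 0.36 on the spike-in scale, and was 0.04 to 0.11 without 1 array. With the replicate number as a block, the counts stayed at 0 up and 0 down.

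Further alternatives without rps2 10 h replicate 3 were chosen after seeing the data. Of 26 genes up, 17 had a change of at least 1, and leaving out another array gave 22 to 25. The 5 genes down became 9 in a fit of the rps2 arrays alone, 13 after the quantile normalisation, 2 on the spike-in scale, 3 at an adjusted p under 0.01, 1 with a change of at least 1, and 3 to 5 without another array. The median of 0.11 became 0.26 and 0.43 on those scales and 0.10 to 0.21 without another array. The replicate block gave 25 up, 24 of them shared, and 5 down. AT1G22110 turned to 0.0082 on the spike-in scale, which adds 0.32 to each change. Over the named genes, 347 values kept direction and side of the threshold, 8 passed newly and 22 were lost.

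The rule itself kept 19 genes on the spike-in scale (18 of the 82), 33 after the quantile normalisation (30 of the 82), 37 at a late rise of at least 2, and 75 to 87 when 1 Col-0 array was left out. The causes were not tested. No filter on low values was run, since centred values hold no level.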

Other observations

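As a description with no test, rps2 10 h replicates 1 and 2 differed from each other in the genes that rose. Of the 26 late-induced genes that rose in rps2 without replicate 3, replicate 1 lay above replicate 2 in 21, and in 15 of the 17 with a change of at least 1. Over all probe sets with such a rise the share with replicate 1 above replicate 2 was 46.7%. The SD of the difference between the arrays was 0.44 over the 82 genes and 0.21 over all probe sets. BSMT1 at 6.39 and 5.11, AT1G54020 at 7.49 and 5.23 and AT4G02360 at 4.93 and 3.57 in replicates 1 and 2 had the widest gaps among the genes named, while AT4G23680 at 2.46 and 3.21 and AT5G52390 at 0.73 and 1.47 ran the other way.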
